A study of Mus musculus with 19 samples.

Results

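The genes described here are Atf4 and 9 genes that its protein product is known to activate: Trib3, Ddit3, Ddit4, Chac1, Asns, Phgdh, Psat1, Shmt2, and Mthfd2. These 10 genes were listed by name as known members of the integrated stress response, and all 10 of 10 were found among the 55487 genes measured. RNA was sequenced from crypts of the small intestine, its distal part left out, of 19 C57BL/6 mice, 1 library per mouse. The aim was to ask how crypts respond to food deprivation with and without neurotensin, a gut hormone encoded by Nts. The groups were 5 Nt+/+ mice (wild type at Nts) fed ad libitum (AL) and 5 Nt+/+ mice fasted for 48 hours (Fast). The other groups were 4 Nt-/- mice fed ad libitum and 5 fasted Nt-/- mice, which lack a functional Nts gene. The authors describe their fed and fasted mice of both genotypes as carrying an Lgr5-EGFP reporter. Mice were 10 to 16 weeks old and of both sexes (12 labeled female, 6 labeled male, and 1 with no sex label), and controls were littermates on standard chow.

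The integrated stress response starts when kinases that sense amino acid shortage, misfolded protein in the endoplasmic reticulum (ER), heme shortage, or double-stranded RNA phosphorylate the translation initiation factor eIF2. General translation then slows, while the messenger RNA of Atf4 is translated more, so that ATF4 protein can rise with little change in Atf4 RNA. ATF4 switches on genes for amino acid synthesis and import, together with genes that limit growth or end the response. The libraries measured RNA, and neither ATF4 protein nor eIF2 phosphorylation was measured in them.

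ATF4 binds, often with a C/EBP partner, to composite elements near the start of its target genes, and the sequences of promoters that hold the core of this element are shown as the background for their place on lists of ATF4 targets. The core TGATGNAA, or TTNCATCA on the other strand, was searched in windows from 250 bases before to 50 bases after each RefSeq start (GRCm38.p6). All 10 genes were in the RefSeq table, and 3 of them, Chac1, Trib3, and Asns, held the core, against 4.51% of 27025 genes. Each stretch below is 30 bases on the strand of its gene, and the capitals mark the core.
Chac1: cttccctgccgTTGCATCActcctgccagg
Trib3: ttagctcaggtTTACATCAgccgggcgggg
Asns: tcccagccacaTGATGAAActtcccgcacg
The Chac1 stretch lies at chr2:119351038-119351067, with the core 193 bases before the RefSeq start and outside the GENCODE gene model. The Trib3 stretch lies at chr2:152344028-152344057 on the minus strand, with the core 15 bases after the RefSeq start and also outside the GENCODE model. The Asns stretch lies at chr6:7693214-7693243 on the minus strand, with the core 23 bases before the RefSeq start and in an exon of the GENCODE model. The longer form TGATGCAAT was in the windows of none of the 10 genes (0 of 10) and in 0.222% of all genes, so the count rests on the shorter core. These are counts of genes, and a gene can have several windows, as Psat1 does. A match is a description of the letters, and no binding was measured here.

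Between 9059418 and 35068669 counts were assigned to genes per mouse (median, 18541770), and 17875 genes were tested. Nts, the targeted gene, was at 6.75 to 8.59 CPM (counts scaled to the size of the library) in AL Nt+/+ mice and at 4.98 to 5.71 CPM in fasted Nt+/+ mice, and no Nt-/- mouse exceeded 0.793 CPM. Nt+/+ Fast replicate 5 carries an Nt+/+ title and an Nt-/- genotype label. Its Nts level was 5.43 CPM, within the range of the other fasted Nt+/+ mice and above every mouse grouped as Nt-/-. This mouse was grouped by title. Nt-/- Fast replicates 2 and 4 had the fewest counts. Summed over 6 epithelial markers (Epcam, Cdh1, and others), each mouse was at 5437 to 7485 CPM. By contrast, 6 markers of stroma and muscle summed to at most 5.38 CPM and 4 of endothelium to at most 3.18 CPM. Immune markers reached more: 5 of T cells summed to at most 87.6 CPM, 5 of B and plasma cells to 20.8 CPM, and 5 of macrophages to 11.4 CPM. The 7 listed markers of villus enterocytes, the mature absorptive cells, were present in every group and differed with diet: they summed to 3468 to 6844 CPM in AL and 7327 to 15110 CPM in fasted Nt+/+ mice, and to 5251 to 7900 CPM in AL and 13490 to 18730 CPM in fasted Nt-/- mice. Of these 7 markers, 6 rose with fasting in Nt+/+ mice and 7 in Nt-/- mice. The 12 listed proliferation genes moved the other way, from 1977 to 2262 CPM to 1300 to 1751 CPM in Nt+/+ mice and from 1919 to 2080 CPM to 1164 to 1478 CPM in Nt-/- mice. In bulk RNA of this kind, fewer cells of a type and less RNA per cell cannot be told apart.

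The 10 genes spanned a wide range of levels. On the deposited scale of TPM, which corrects for gene length, Atf4 averaged 88.6 ± 8.91 TPM (SD, n = 19 mice), 2.70 times the level of the next gene, Asns, at 32.8 ± 6.72 TPM. Shmt2 followed at 22.6 ± 4.31 TPM, and its mean ± SD range overlapped that of Asns. Mthfd2 (14.5 ± 3.39 TPM), Psat1 (12.5 ± 3.16 TPM), Ddit4 (12.2 ± 3.75 TPM), Ddit3 (11.6 ± 2.93 TPM), and Phgdh (10.9 ± 2.66 TPM) formed a group in which the mean ± SD range of each neighbor overlapped the next. Trib3 (2.13 ± 1.34 TPM) and Chac1 (1.05 ± 0.596 TPM) were lowest, overlapped each other, and rested on 16 to 140 and 9 to 71 counts per mouse.

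**Figure D1:**
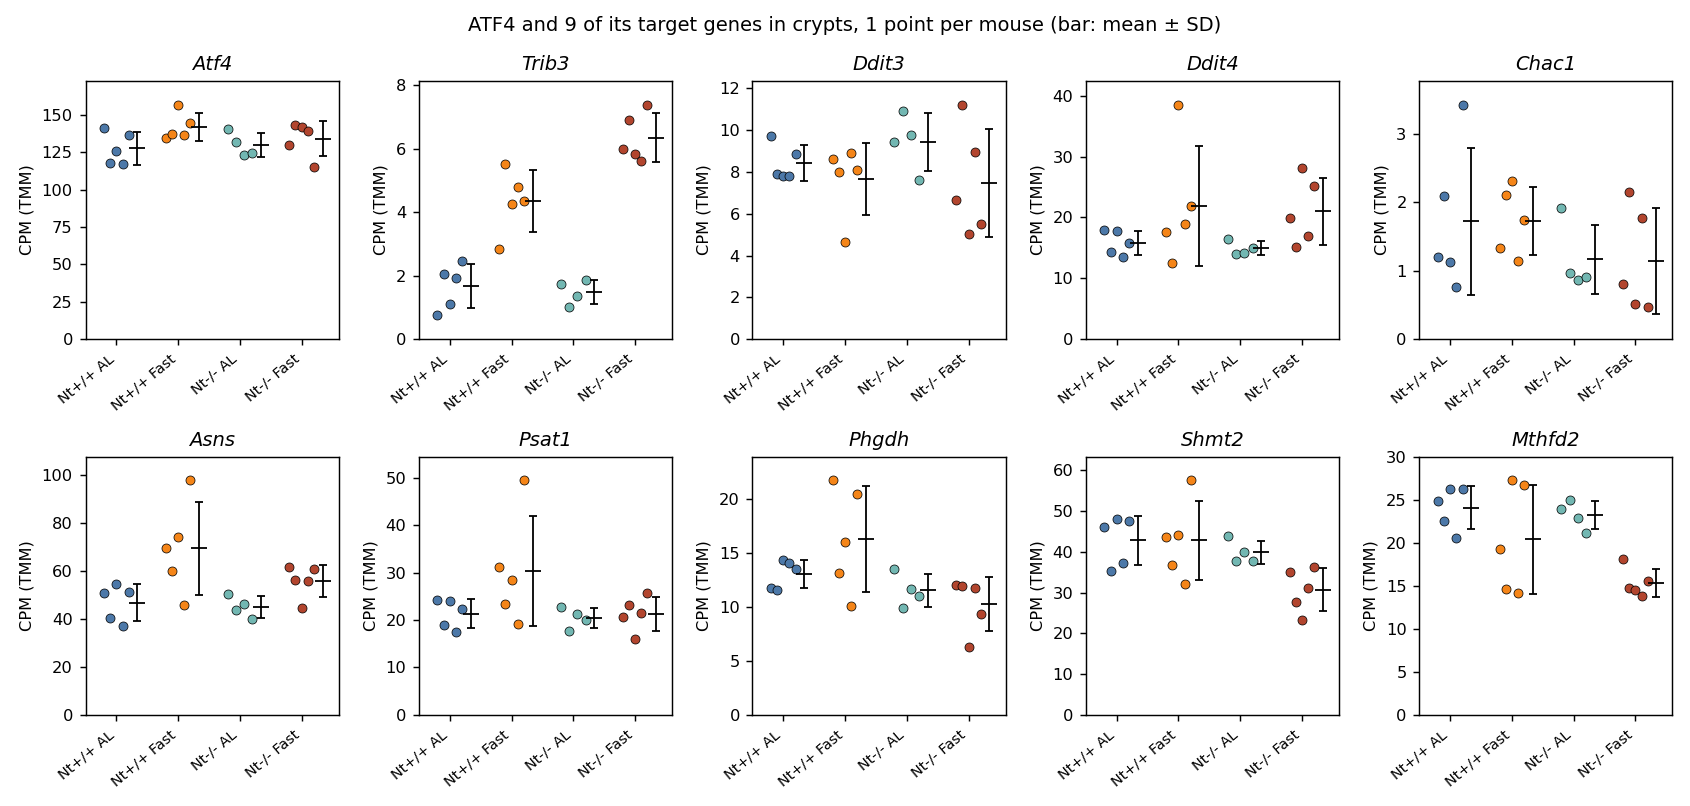
Level of each of the 10 genes in CPM (linear axis from 0) with 1 point per mouse, by group; the black bar beside each group is the mean ± SD. Trib3 is higher in every fasted mouse (2.84 to 7.40 CPM) than in any AL mouse (at most 2.47 CPM), Mthfd2 is lowest in fasted Nt-/- mice, and Atf4 stays between 115 and 157 CPM in all 19 mice.

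Fasting raised 2 of the 10 genes in Nt+/+ mice, Trib3 and Asns, and lowered 0 of 10. With edgeR's quasi-likelihood test at a Benjamini-Hochberg adjusted p under 0.05, 21.6% of all genes tested passed in this comparison (11.2% higher and 10.4% lower), so 2 of 10 is close to the background. At an unadjusted p under 0.05 the counts were 5 higher and 0 lower, against 34.1% of all genes in either direction, and DESeq2 called 0 lower. The median log2 fold change of the 10 genes was 0.24, against -0.01 over all genes. Among Nt-/- mice fasting raised 1 gene, Trib3, and lowered 1, Mthfd2, where 25.2% of all genes passed (12.5% higher and 12.6% lower), and at an unadjusted p under 0.05 there were 2 higher and 2 lower (36.5% of all genes). Their median was -0.07 against -0.02 over all genes.

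Atf4 itself (ENSMUSG00000042406, chr15:80255184-80257541, plus strand) encodes the transcription factor of the response. It averaged 127.5 ± 11.0 CPM (n = 5) in AL and 141.9 ± 9.11 CPM (n = 5) in fasted Nt+/+ mice, and 130 ± 8.07 CPM (n = 4) in AL and 134 ± 11.6 CPM (n = 5) in fasted Nt-/- mice. The groups overlapped in both genotypes. The log2 fold change with fasting was 0.15 ± 0.07 (SE; adjusted p = 0.145) in Nt+/+ mice and 0.04 ± 0.08 (adjusted p = 0.743) in Nt-/- mice, with 95% intervals of the fold from 1 to 1.24 and from 0.92 to 1.15. Atf4 thus had the tightest estimate of the 10 genes, and a change in its RNA above 1.24-fold lay outside both intervals.

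Trib3 (ENSMUSG00000032715, chr2:152337422-152344032, minus strand) encodes a pseudokinase that binds ATF4 and the kinase AKT and acts as a feedback inhibitor of the response. In AL Nt+/+ mice, in the order of their replicate numbers as for all values given by mouse, it was at 0.768, 2.05, 1.12, 1.93, and 2.47 CPM, and in fasted Nt+/+ mice at 2.84, 5.53, 4.27, 4.80, and 4.37 CPM. The AL Nt-/- mice were at 1.74, 1.03, 1.35, and 1.86 CPM, and the fasted Nt-/- mice at 5.98, 6.92, 5.84, 5.62, and 7.40 CPM. Fasted and fed mice did not overlap in either genotype, a pattern held by 7.63% and 10.5% of all genes in this direction. The rise was 2.59-fold (95% interval, 1.80 to 3.74; adjusted p = 0.000708) in Nt+/+ mice and 4.21-fold (2.82 to 6.27; adjusted p = 2.47e-05) in Nt-/- mice. Trib3 was the gene that passed the threshold in both genotypes, and it kept its direction and its call in every alternative run for these comparisons. Villus enterocyte markers moved with it: within groups, the deviations of Trib3 from its group mean followed those of the summed villus markers with Pearson's r = 0.78 and Spearman's rho = 0.70 over 19 mice, and the part of these cells in the result was not tested.

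Ddit3 (ENSMUSG00000025408, chr10:127290774-127296288, plus strand) encodes CHOP, a transcription factor tied to cell death under prolonged ER stress. It was at 9.74, 7.92, 7.80, 7.82, and 8.85 CPM in AL Nt+/+ mice and at 8.63, 7.98, 4.63, 8.91, and 8.12 CPM in fasted Nt+/+ mice. In AL Nt-/- mice it was at 9.44, 10.9, 9.78, and 7.62 CPM, and in fasted Nt-/- mice at 6.68, 11.2, 5.03, 8.98, and 5.495 CPM. The groups overlapped, and the fold with fasting was 0.907 (95% interval, 0.681 to 1.21; adjusted p = 0.665) in Nt+/+ mice and 0.779 (0.574 to 1.06; adjusted p = 0.234) in Nt-/- mice. Among fasted Nt-/- mice, the 2 libraries with the fewest counts held the highest values, and without them the log2 fold change was -0.72 (adjusted p = 0.0143). No alternative gave a rise of Ddit3 with fasting. Exons of Ddit3 share 68 bases with Mars on the opposite strand, and the strand setting of the counting is not given in the sources used here.

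Chac1 (ENSMUSG00000027313, chr2:119351229-119354381, plus strand), which encodes an enzyme that degrades glutathione and is usually induced together with Ddit3, was at 0.761 to 3.43 CPM in AL and 1.14 to 2.32 CPM in fasted Nt+/+ mice, and at 0.867 to 1.92 CPM in AL and 0.476 to 2.16 CPM in fasted Nt-/- mice. Every group overlapped every other. The fold with fasting was 0.997 (95% interval, 0.549 to 1.81) in Nt+/+ mice and 0.885 (0.446 to 1.76) in Nt-/- mice, so at these few counts rises of up to 1.81-fold and 1.76-fold lay within the intervals.

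Ddit4 (ENSMUSG00000020108, chr10:59949669-59951834, minus strand) encodes REDD1, an inhibitor of the growth kinase complex TORC1. It was at 17.99, 14.4, 17.7, 13.6, and 15.8 CPM in AL Nt+/+ mice and at 17.6, 12.6, 38.5, 18.9, and 22.0 CPM in fasted Nt+/+ mice. The AL Nt-/- mice were at 16.5, 14.1, 14.1, and 15.0 CPM, and the fasted Nt-/- mice at 19.9, 15.1, 28.1, 16.9, and 25.2 CPM. The fasted mice of both genotypes were far more spread than the fed mice, and replicate 3 was highest in each. The log2 fold change was 0.47 ± 0.22 (adjusted p = 0.137) in Nt+/+ mice and 0.50 ± 0.24 (adjusted p = 0.127) in Nt-/- mice, which did not pass. The difference passed in some other fits: with file-name numbers as a replicate block, adjusted p = 0.0472 in Nt+/+ mice, and with only the 2 Nt-/- groups in the fit, adjusted p = 0.0433. Without Nt+/+ Fast replicate 3 the log2 fold change in Nt+/+ mice dropped to 0.16, and without replicate 2 it was 0.62 (adjusted p = 0.0429).

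Asns (ENSMUSG00000029752, chr6:7675169-7693254, minus strand) encodes asparagine synthetase, the classic target of the amino acid shortage branch. It was at 50.7, 40.4, 54.6, 37.1, and 51.2 CPM in AL Nt+/+ mice and at 69.7, 60.04, 74.0, 45.6, and 97.9 CPM in fasted Nt+/+ mice. In AL Nt-/- mice it was at 50.5, 43.6, 46.1, and 39.8 CPM, and in fasted Nt-/- mice at 61.8, 56.2, 44.6, 55.7, and 60.8 CPM. Fasted Nt+/+ replicate 4 lay within the fed range and the other 4 fasted Nt+/+ mice above it. The rise was 1.49-fold in Nt+/+ mice (95% interval, 1.19 to 1.86; adjusted p = 0.0114), and the difference in Nt-/- mice was 1.24-fold (0.977 to 1.57; adjusted p = 0.184). The highest mouse, Nt+/+ Fast replicate 5, is the one whose labels disagree; without it the log2 fold change in Nt+/+ mice was 0.42 (adjusted p = 0.0357), and with it counted as Nt-/- the value was 0.42 with adjusted p = 0.106.

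Phgdh (ENSMUSG00000053398, chr3:98313170-98339990, minus strand) and Psat1 (ENSMUSG00000024640, chr19:15904678-15947337, minus strand) encode the first 2 enzymes of serine synthesis from a glycolytic intermediate. Psat1 was at 24.1, 18.9, 24.0, 17.4, and 22.3 CPM in AL and at 31.2, 23.5, 28.4, 19.1, and 49.5 CPM in fasted Nt+/+ mice. The AL Nt-/- mice were at 22.9, 17.6, 21.3, and 20.0 CPM, and the fasted Nt-/- mice at 20.6, 23.2, 15.9, 21.4, and 25.6 CPM. The Nt+/+ difference of Psat1 was 1.42-fold (95% interval, 1.08 to 1.87) and missed the threshold (adjusted p = 0.0601). It passed with the replicate block (adjusted p = 0.0302 by title number and 0.0386 by file-name number), with DESeq2 (adjusted p = 0.0388), with upper quartile normalization (adjusted p = 0.0465), and with a minimum of 10 counts in each mouse (adjusted p = 0.0453), while without Nt+/+ Fast replicate 5 the log2 fold change dropped from 0.51 to 0.26 (adjusted p = 0.226). Psat1 differed 1.04-fold in Nt-/- mice (0.777 to 1.40).

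Phgdh was at 11.8, 11.6, 14.3, 14.1, and 13.5 CPM in AL and at 21.7, 13.1, 16, 10.1, and 20.4 CPM in fasted Nt+/+ mice. In AL Nt-/- mice it was at 13.5, 9.90, 11.7, and 11.0 CPM, and in fasted Nt-/- mice at 12.01, 11.9, 6.25, 11.7, and 9.30 CPM. The fasted Nt+/+ mice spread from below to above the fed range, and the log2 fold change was 0.32 ± 0.19 (adjusted p = 0.243), against -0.18 ± 0.20 (adjusted p = 0.566) in Nt-/- mice. In 12 mice some reads of Phgdh had been divided between genes by the authors' counting program, as its fractional counts show.

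Shmt2 (ENSMUSG00000025403, chr10:127517123-127522444, minus strand) and Mthfd2 (ENSMUSG00000005667, chr6:83305691-83325908, minus strand) encode mitochondrial enzymes that pass carbon units from serine to folate for nucleotide synthesis. Mthfd2 was at 25.0, 22.6, 26.3, 20.6, and 26.2 CPM in AL and at 19.3, 14.7, 27.3, 14.2, and 26.7 CPM in fasted Nt+/+ mice. The AL Nt-/- mice were at 24.0, 25.1, 23.0, and 21.2 CPM, and the fasted Nt-/- mice at 18.1, 14.8, 14.5, 13.8, and 15.6 CPM. Every fasted Nt-/- mouse lay below every fed Nt-/- mouse, as for 10.8% of all genes in this direction, whereas the fasted Nt+/+ mice fell on both sides of the fed range. Mthfd2 fell to 0.661-fold in Nt-/- mice (95% interval, 0.521 to 0.837; adjusted p = 0.0109) and was at 0.850-fold in Nt+/+ mice (0.681 to 1.06; adjusted p = 0.298). Without the 2 Nt-/- libraries with the fewest counts the adjusted p was 0.0592, and with Nt+/+ Fast replicate 5 counted as Nt-/- it was 0.094.

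Shmt2 was at 46.0, 35.3, 48.0, 37.3, and 47.5 CPM in AL and at 43.7, 36.7, 44.1, 32.0, and 57.6 CPM in fasted Nt+/+ mice. In AL Nt-/- mice it was at 43.9, 37.8, 39.97, and 37.8 CPM, and in fasted Nt-/- mice at 35.1, 27.7, 23.4, 31.1, and 36.2 CPM. The Nt-/- groups did not overlap, as for 10.8% of all genes in this direction, and the Nt+/+ means were equal at 42.8 CPM. The fold with fasting was 0.771 in Nt-/- mice (95% interval, 0.621 to 0.956; adjusted p = 0.0709) and 1.00 in Nt+/+ mice (0.818 to 1.23; adjusted p = 0.996). With the replicate block the Nt-/- difference passed (adjusted p = 0.00432 by title number and 0.025 by file-name number), and it also passed with sex as a covariate (adjusted p = 0.0469).

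**Figure D2:**
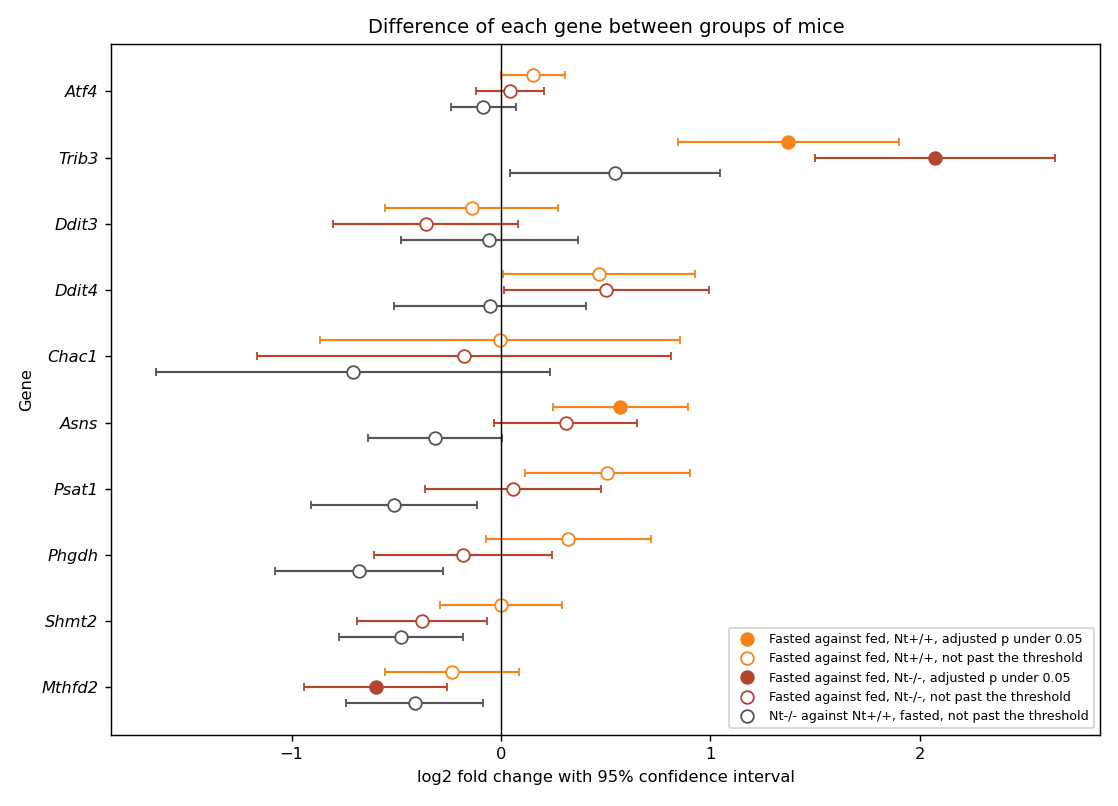
Log2 fold change of each of the 10 genes with its 95% confidence interval (horizontal axis) in 3 comparisons; filled points passed an adjusted p under 0.05 over all genes tested. Filled points stand only at Trib3 in both genotypes, Asns in Nt+/+ mice, and Mthfd2 in Nt-/- mice; the 5 amino acid and folate enzymes lie left of 0 in fasted Nt-/- against fasted Nt+/+ mice, none past the threshold.

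Between genotypes, none of the 10 genes passed the threshold. In AL mice edgeR called 0 of 10 (0 at an unadjusted p under 0.05, where 1.67% of all genes passed, and 0 with DESeq2), with 0.00559% of all genes called, and log2 differences of Nt-/- minus Nt+/+ ran from -0.54 (Chac1) to 0.16 (Ddit3). In fasted mice edgeR and DESeq2 also called 0 of 10, again with 0.00559% of all genes called by edgeR. The single gene that edgeR called in each comparison was Nts, whereas DESeq2 called 3 genes in AL and 101 in fasted mice. At an unadjusted p under 0.05, 1 of the 10 genes was higher and 4 were lower in fasted Nt-/- mice, where 9.14% of all genes passed in either direction and 4.47% in the lower one. In all, 9 of 10 genes had a log2 difference below 0, against 52.7% of all genes, and their median was -0.36 against -0.01.

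The genes lower in fasted Nt-/- than in fasted Nt+/+ mice at the unadjusted threshold were enzymes. Phgdh stood at 10.2 against 16.3 CPM (0.625-fold; 95% interval, 0.473 to 0.827; adjusted p = 0.277) and Shmt2 at 30.7 against 42.8 CPM (0.718-fold; 0.585 to 0.881; adjusted p = 0.308). Psat1 stood at 21.3 against 30.3 CPM (0.702-fold; 0.533 to 0.925; adjusted p = 0.398) and Mthfd2 at 15.4 against 20.4 CPM (0.752-fold; 0.600 to 0.943; adjusted p = 0.401). The groups overlapped for all 4. Trib3 differed in the other direction: every fasted Nt-/- mouse was above every fasted Nt+/+ mouse, as for 0.94% of all genes in this direction, and the level was 1.46-fold higher (1.03 to 2.07; adjusted p = 0.491). Villus markers were also higher in the fasted Nt-/- mice, at a mean sum of 17010 CPM against 11860 CPM, and proliferation genes lower, at 1333 against 1559 CPM; their part in these differences was not tested. With Nt+/+ Fast replicate 5 counted as Nt-/-, the log2 difference of Psat1 was 0.03 and that of Asns 0.01, against -0.51 and -0.32 as grouped. The same regrouping took Phgdh from -0.68 to -0.35, Shmt2 from -0.48 to -0.15, and Mthfd2 from -0.41 to -0.13.

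Whether fasting acted differently in the 2 genotypes was tested as an interaction, and edgeR and DESeq2 called 0 of 10 (0 at an unadjusted p under 0.05), with 0% of all genes called by edgeR and 2.71% at an unadjusted p under 0.05. The largest estimates, as the log2 fold change in Nt-/- minus that in Nt+/+ mice, were 0.70 for Trib3 (95% interval, -0.07 to 1.47) and -0.50 for Phgdh (-1.08 to 0.08). Those of Psat1, Shmt2, Mthfd2, and Asns were -0.45, -0.38, -0.36, and -0.26. With Nt+/+ Fast replicate 5 counted as Nt-/-, those of Phgdh, Shmt2, and Mthfd2 were -0.18, -0.05, and -0.08, and those of Psat1 and Asns 0.09 and 0.07. The adjusted p as grouped was 0.9998 for every one of the 10 genes. The calls of Asns in Nt+/+ mice alone and of Mthfd2 in Nt-/- mice alone are therefore not shown to differ between genotypes.

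The 10 genes did not all vary together from mouse to mouse. After the mean of each group was subtracted from the log2 CPM of its mice, the 45 pairs of genes had a median Pearson's r of 0.21 over 19 mice, and 32 of the 45 were above 0. These correlations are given as a description with no p: mice share replicate numbers, and all values of a mouse come from 1 library. Asns and Shmt2 were most alike (r = 0.94, Spearman's rho = 0.93), followed by Asns and Psat1 (r = 0.92, rho = 0.79) and Psat1 and Shmt2 (r = 0.89, rho = 0.81). Without the 2 mice farthest from the median of the first gene, r was 0.91, 0.84, and 0.82. After the file-name number was also removed, r was 0.97, 0.92, and 0.84. The 5 enzymes of amino acid and folate metabolism were positively correlated in all 10 of their pairs, from r = 0.49 (Phgdh and Mthfd2) to r = 0.94. Proliferation genes moved with them: their summed level had r = 0.81 with Psat1, 0.79 with Shmt2, 0.76 with Asns, 0.64 with Phgdh, and 0.43 with Mthfd2 over the same 19 mice, and their part in the pattern was not tested.

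The signaling genes had lower r with the enzymes, except that Ddit4 and Mthfd2 had r = 0.64 (rho = 0.62; r = 0.32 without the 2 mice farthest from the median of Ddit4). Atf4 had an r of 0.04 to 0.37 with the 5 enzymes, and its highest value was with Chac1 (r = 0.56, rho = 0.55). Trib3 had an r below 0 with every enzyme, from -0.24 to -0.10. Ddit3 and Ddit4 gave the lowest value of all pairs (r = -0.74, rho = -0.64), which was -0.54 without the 2 mice farthest from the median of Ddit3 and -0.40 after the file-name number was removed. The total count of the library had an r of -0.52 with Ddit3 and 0.54 with Ddit4. In each fasted group the highest Ddit4 values were those of replicates 3 and 5, labeled male apart from Nt-/- replicate 5, which has no sex label. In each AL group the highest was replicate 1, labeled female. The parts of depth and sex in this pair were not tested.

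**Figure D3:**
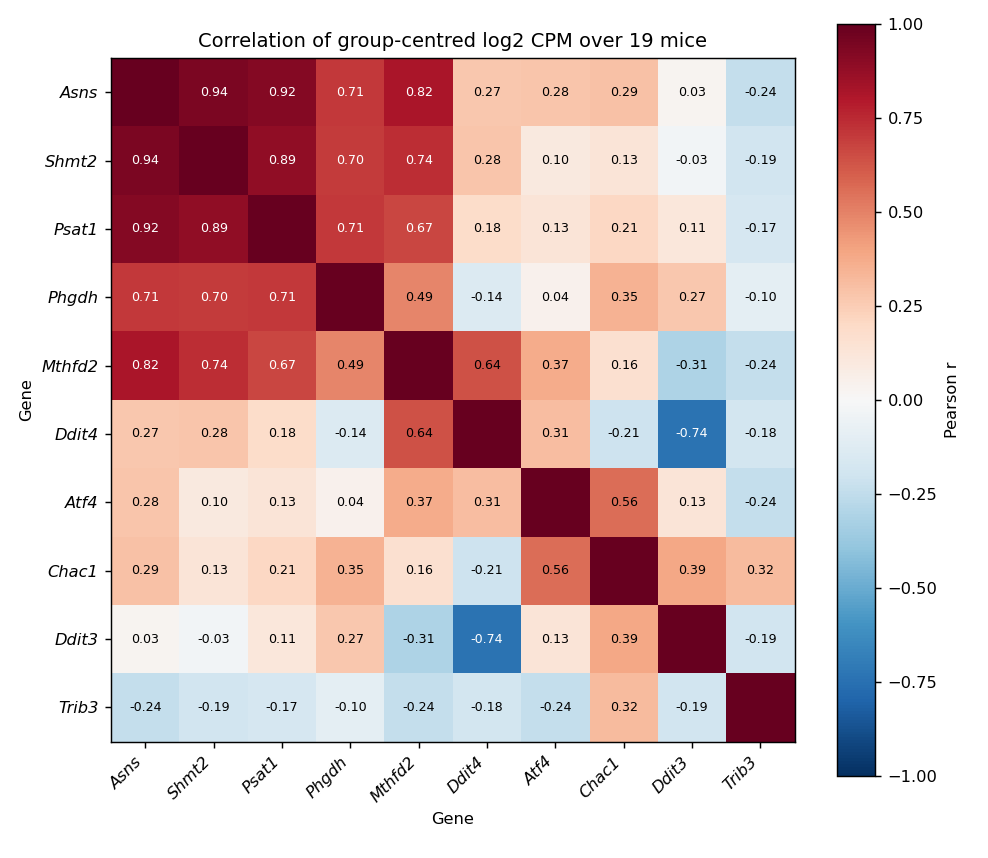
Pearson's r between each pair of the 10 genes (both axes), from log2 CPM with the group mean removed, over 19 mice; red is positive and blue negative, on a scale from -1 to 1. Asns, Shmt2, Psat1, Phgdh, and Mthfd2 form a red block with r of 0.49 to 0.94, Trib3 lies in pale blue against them, and Ddit3 with Ddit4 is the darkest blue at -0.74.

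Over all genes tested, the gene most like each of the 10 was taken by the same measure. For Asns it was Shmt2 and for Shmt2 and Psat1 it was Asns, as given above. For Ddit4 it was Slc7a5 (r = 0.91, rho = 0.87), which encodes the light subunit of a leucine exchanger, and for Mthfd2 it was Eif4ebp1 (r = 0.87, rho = 0.78), which encodes a repressor of translation. For Ddit3 it was Amt (r = 0.91, rho = 0.85), for Phgdh 2210407C18Rik (r = 0.91, rho = 0.87), for Chac1 Cyb5d2 (r = 0.74, rho = 0.74), and for Trib3 Cyp2c68 (r = 0.93, rho = 0.89). The 5 genes most like Atf4 were Gmpr (r = 0.83), Emg1, Cars, Stk35, and Apba2 (r from 0.75 to 0.76 for the latter 4), of which Cars encodes the transfer RNA ligase for cysteine. Each was picked as the highest r over all genes tested, so high values were selected for.

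Other genes of the pathway were counted in lists. Of 18 tested genes of 21 on a list of further ATF4 targets, 7 rose and 0 fell with fasting in Nt+/+ mice (median log2 fold change 0.25), and 4 rose and 2 fell in Nt-/- mice (median 0.19). Over all genes, 11.2% rose and 10.4% fell in Nt+/+ mice and 12.5% rose and 12.6% fell in Nt-/- mice, the background for this and the following lists. In Nt+/+ mice Herpud1, which takes part in ER-associated protein degradation, rose from 59.2 to 100.8 CPM (log2 fold change 0.77 ± 0.17, adjusted p = 0.00281), and Vldlr, a lipoprotein receptor, rose by 0.69 ± 0.13 (adjusted p = 0.00116). Eif4ebp1 rose by 0.64 ± 0.15 in Nt+/+ mice (adjusted p = 0.00573), and Pycr1, an enzyme of proline synthesis, fell by 0.67 ± 0.20 in Nt-/- mice (adjusted p = 0.0171). Herpud1 and Vldlr rose in Nt-/- mice by 0.83 ± 0.18 and 0.83 ± 0.14 (adjusted p = 0.0021 and 0.000361).

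Of 9 ATF4 partners and related stress factors, 2 rose in Nt+/+ mice and 1 in Nt-/- mice, against 11.2% and 12.5% of all genes. Atf5, a relative of Atf4 whose messenger RNA is under similar translational control, rose from 7.79 to 26.9 CPM in Nt+/+ mice (3.45-fold; 95% interval, 2.61 to 4.57; adjusted p = 3.03e-06) and from 7.92 to 20.9 CPM in Nt-/- mice (2.63-fold; 1.95 to 3.56; adjusted p = 7.59e-05). Xbp1, the transcription factor of the IRE1 branch, rose by 0.31 ± 0.10 on the log2 scale in Nt+/+ mice (adjusted p = 0.0347). Among 16 genes for eIF2 subunits, kinases, and regulators, 1 fell in Nt+/+ mice (10.4% of all genes), Eif2s1 (log2 fold change -0.31 ± 0.09, adjusted p = 0.0235). In Nt-/- mice, where 12.5% of all genes rose and 12.6% fell, 1 rose, the heme-sensing kinase gene Eif2ak1 (0.31 ± 0.08, adjusted p = 0.00621), and 3 fell, among them Gcn1l1, a coactivator of the amino acid–sensing kinase (-0.40 ± 0.08, adjusted p = 0.00088), and Eif2b4, a subunit of the eIF2 exchange factor (-0.42 ± 0.12, adjusted p = 0.0142).

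Of 9 tested amino acid transporters of 10 listed, Slc3a2, the shared heavy subunit of several exchangers, rose in both genotypes, from 124.5 to 167.1 CPM in Nt+/+ mice (adjusted p = 0.0263) and from 132.7 to 192.8 CPM in Nt-/- mice (adjusted p = 0.00835). The neutral amino acid carriers Slc1a4 and Slc1a5 fell in Nt-/- mice, by 0.68 ± 0.24 and 0.31 ± 0.11 on the log2 scale (adjusted p = 0.0407 and 0.0458). Of 20 tested serine and folate enzymes, 4 of which are among the 10 genes, 2 rose and 3 fell in Nt+/+ mice (11.2% and 10.4% of all genes), and 1 rose and 5 fell in Nt-/- mice (12.5% and 12.6%). Psph, which completes serine synthesis, rose in Nt+/+ mice (log2 fold change 0.42 ± 0.12, adjusted p = 0.0168). Among those that fell were Mtr, methionine synthase, by 0.54 ± 0.09 in Nt+/+ and 0.42 ± 0.10 in Nt-/- mice (adjusted p = 0.000388 and 0.00361), Tyms, thymidylate synthase, by 0.40 ± 0.09 and 0.55 ± 0.10 (adjusted p = 0.00462 and 0.00047), and Mthfd1 by 0.39 ± 0.11 and 0.58 ± 0.11 (adjusted p = 0.0131 and 0.000968).

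A further list held ER chaperones and other targets of the IRE1 and ATF6 branches, the arms of the unfolded protein response that run beside ATF4. Of 17 genes, 12 fell and 0 rose in Nt+/+ mice (median log2 fold change -0.37), and 11 fell and 0 rose in Nt-/- mice (median -0.32), where 10.4% and 12.6% of all genes fell; at an unadjusted p under 0.05, 14 and 13 were lower and 0 higher in either genotype. These counts hold for the list as drawn up: Herpud1 and Xbp1, which rose as given above, were counted on other lists. Sdf2l1, an ER cochaperone, fell from 34.2 to 18.7 CPM in Nt+/+ and from 27.7 to 14.5 CPM in Nt-/- mice (adjusted p = 0.00219 and 0.00171). Creld2 and Pdia6, an ER-resident stress protein and a disulfide isomerase, fell by 0.81 ± 0.16 and 0.55 ± 0.13 in Nt+/+ mice (adjusted p = 0.00155 and 0.00433) and by 0.70 ± 0.17 and 0.64 ± 0.14 in Nt-/- mice (adjusted p = 0.00576 and 0.00178). Of 13 tested TORC1 inhibitors and genes of the DDIT4 pathway, 2 fell in Nt+/+ mice. They were Sesn1 (-0.50 ± 0.10, adjusted p = 0.0017) and Sesn3 (-0.33 ± 0.08, adjusted p = 0.00767), both listed as TORC1 inhibitors. In Nt-/- mice 1 fell, Sesn3 (-0.35 ± 0.09, adjusted p = 0.00688).

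**Figure D4:**
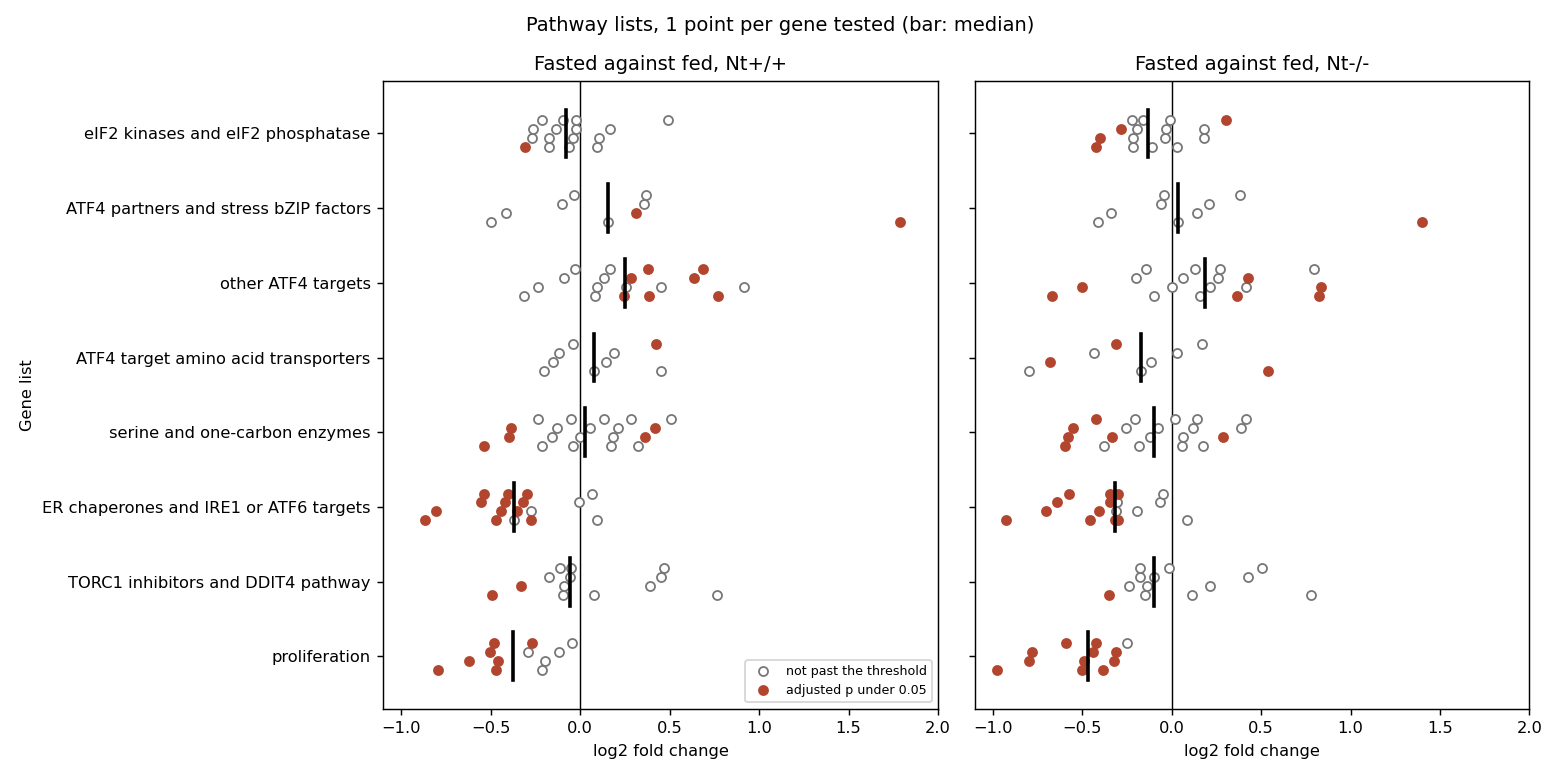
Log2 fold change with fasting (horizontal axis) of each tested gene of 8 lists in Nt+/+ (left) and Nt-/- mice (right), 1 point per gene; filled points passed an adjusted p under 0.05 and the black bar is the median of the list. ER chaperones and proliferation genes lie mostly left of 0 (medians -0.37 and -0.38 in Nt+/+ mice), further ATF4 targets mostly right of 0, and Atf5 is the point at the far right.

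The fasted mice of the 2 genotypes were each set against their own fed mice, so these 2 fasting comparisons share no mice, whereas each comparison of genotypes shares its mice with them. In fasted Nt-/- against fasted Nt+/+ mice, the transporter list had a median log2 difference of -0.38, against -0.01 over all genes. Of its 9 tested genes, 7 were below 0 (52.7% of all genes) and 1 was lower at an unadjusted p under 0.05 (4.47% of all genes). Of 20 serine and folate enzymes, 6 were lower and 1 was higher at that threshold. Of these 6, 4 are Phgdh, Psat1, Shmt2, and Mthfd2, whose differences are given above. Of the 12 proliferation genes, 9 were lower and 0 higher at that threshold.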

How the data were processed

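Ribosomal RNA–depleted libraries of crypt RNA, 1 per mouse, were sequenced single-end by the authors, who trimmed reads with Trimmomatic 0.39 and quantified them with RSEM on Ensembl GRCm38 transcripts; the RSEM version and strand setting are not given in the sources used here. The authors deposited for each gene an expected count, which divides reads that fit several transcripts or genes, and TPM, which the authors' program scales by gene length to a fixed total. Groups were taken from the sample titles. The 10 genes and the pathway and marker lists were chosen with earlier results of these data known.

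Expected counts were rounded to whole numbers and tested with edgeR 4.0.16 (R 4.3.3): TMM normalization, filterByExpr (17875 of 55487 genes kept, all 10 described here among them), 1 coefficient for each of the 4 groups, no covariate, 15 residual degrees of freedom, and quasi-likelihood tests with Benjamini-Hochberg adjustment over all genes tested, called at an adjusted p under 0.05. The common dispersion was 0.0357, a biological coefficient of variation of 18.9%, and totals of 9059418 to 35068669 counts per mouse limit precision most for Trib3 and Chac1. CPM values use TMM library sizes. The SE of a log2 fold change is its size over the root of the F statistic. Gene IDs were matched to GENCODE M21 symbols (55141 matched); the symbol Ddit3 belongs to 2 IDs, and the one with more counts was used. Correlations used log2 CPM with a prior count of 2, minus the group mean. The test was checked on simulated counts.

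Genes named beside the 10 were, from each list and fasting comparison, up to 3 past the threshold with the largest change, plus Nts and the genes most like each of the 10 over mice. Alternatives were DESeq2 1.42.0, upper quartile normalization, no filter on low counts or a minimum of 10 counts in each mouse, sex as a covariate in 18 mice, only the groups compared, the other label of the mouse with disagreeing labels, each mouse left out, and a replicate block. Replicate numbers come from the titles or from the file names, which differ for 2 mice. Once group means were removed, mice that share a number correlated over all genes tested at 0.27 on average between the Nt+/+ groups and 0.271 between the fasted groups, with every pair above 0.1 by either number. By file-name number the other comparisons also had every pair above 0.1 (lowest, 0.117), whereas by title number their lowest pairs were -0.065 (Nt-/- groups) and 0.006 (AL groups). Pairs of mice with different numbers averaged -0.066 between the Nt+/+ groups and -0.067 between the fasted groups. By file-name number, pairs sharing a number averaged 0.23 (Nt-/- groups) and 0.244 (AL groups), against -0.058 and -0.062 for the others. Mice with file-name numbers 1, 2, and 4 were all labeled female. Those with numbers 3 and 5 were labeled male, apart from Nt-/- Fast replicate 5, which has no sex label. Mice sharing a title number did not all share a sex label, as Nt-/- AL replicates 3 and 4 show. The part of sex in these correlations and in the replicate block was not tested. The fit behind the reported values holds no block.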

Additional observations from a re-analysis of the deposited data

Results flagged for a closer look

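Of 40 groups of values (10 genes in 4 groups of mice), 2 held a mouse whose gap to the nearest other mouse took up more of the group's range than Dixon's critical value allows; chance gives about 1 in 20 such groups. Ddit3 in Nt+/+ Fast replicate 3 was at 4.63 CPM, below the other 4 mice of its group, with a gap of 0.783 of the range. Chac1 in Nt-/- AL replicate 1 was at 1.92 CPM, above the other 3 mice, with a gap of 0.898 of the range.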

How the results depend on the processing

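Trib3 kept its direction and its call in both genotypes under every alternative named in the methods. The number of the 10 genes called with fasting in Nt+/+ mice was 2 as reported, 4 with the replicate block by file-name number (adding Psat1 and Ddit4), 3 with the block by title number, DESeq2, upper quartile normalization, or a minimum of 10 counts (each adding Psat1), and 1 with the mouse of disagreeing labels counted as Nt-/- (Trib3). It ranged from 2 to 4 when each mouse was left out, with 4 without Nt+/+ Fast replicate 2. In Nt-/- mice it was 2 as reported, 3 with either block or sex as covariate (adding Shmt2), 3 with only the groups compared (adding Ddit4), 1 with that mouse regrouped, and 2 to 3 with each mouse left out. With the 2 Nt-/- libraries of fewest counts left out, an alternative chosen after seeing the data, it was 2 but held Trib3 and Ddit3. Calls over all genes moved too. In Nt+/+ mice 3862 of 17875 genes passed as reported, and 5484 and 5006 with the block by file-name and title number. DESeq2 called 4165, upper quartile normalization 4027, a minimum of 10 counts 3795 of 13806, and the regrouping 3850. In Nt-/- mice 4499 passed as reported, 5672 and 5657 with the blocks, and 4049 with the regrouping. Sex as covariate gave 4107 of 17743, and only the groups compared 3988 of 16967. Apart from Psat1, Ddit4, and Shmt2, the replicate block changed no call. The genotype and interaction counts stayed at 0 throughout. The promoter motif was in 3 of 10 genes as reported and 0 in its 9-letter form.

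Directions that changed belonged to log2 fold changes that had not passed. With fasting in Nt+/+ mice, Shmt2 was at -0.00468 without a filter, -0.0125 and -0.00786 with the block by title and file-name number, -0.00245 with sex as covariate, -0.13 with the mouse regrouped, and -0.13 to 0.0899 with each mouse left out; Chac1 was at 0.00488 with DESeq2, 0.0828 and 0.0527 with the title and file-name block, and -0.19 to 0.41 with each mouse left out. In Nt-/- mice, Psat1 was at -0.0489 with the title block, -0.0166 with sex as covariate, and -0.0204 to 0.15 with each mouse left out; Chac1 was at 0.0403 with sex as covariate and -0.51 to 0.21 with each mouse left out; Phgdh was at 0.0486 with the mouse regrouped, and Atf4 at -0.00792 without the 2 libraries of fewest counts. With the mouse regrouped, the fasted genotype differences of Asns and Psat1 were 0.013 and 0.031 and their interactions 0.0663 and 0.0902. The cause was not tested. Over all 10 genes and 5 comparisons, 972 of 1055 values kept their direction and their side of the threshold and 65 changed direction. Depth limits Chac1 and Trib3 most, and 1 mouse with disagreeing labels limits Asns, Psat1, Phgdh, Shmt2, and Mthfd2. The Nts level of that mouse, 5.43 CPM, lay among those of the other fasted Nt+/+ mice and above every mouse grouped as Nt-/-.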

Other observations

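In the fasted groups the mouse with the highest Ddit4 was also the mouse with the lowest Ddit3 in Nt+/+ mice (replicate 3, at 38.5 and 4.63 CPM), and in fasted Nt-/- mice replicate 3 had the highest Ddit4 at 28.1 CPM beside 5.03 CPM of Ddit3, the lowest of that group. The 2 Nt-/- Fast libraries with the fewest counts, replicates 2 and 4, held the highest Ddit3 (11.2 and 8.98 CPM) and Chac1 (2.16 and 1.78 CPM) of their group. The mouse with disagreeing labels, Nt+/+ Fast replicate 5, held the highest Asns, Psat1, and Shmt2 of all 19 mice, at 97.9, 49.5, and 57.6 CPM.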
